A study of Mus musculus with 21 samples.

Results

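The comparison described here set TMPyP4-treated mouse embryonic fibroblasts (MEFs) against untreated MEFs that express a mutant RTEL1. It rests on 6 of the 21 RNA-seq libraries of the series, 3 in each group, chosen by their labels alone. The treated group (*Rtel1* F/F +GFP +TMPyP4, called TMPyP4 cells) carried floxed, undeleted *Rtel1* alleles, was infected with a GFP adenovirus (Ad-GFP), and received 10 μM TMPyP4 for the last 48 h before collection at 96 h. The other group (*Rtel1* F/F, RTEL1 C1252A/C1255A, +GFP, called RTEL1 CA cells) had the same floxed alleles and the same Ad-GFP infection, was collected at 96 h without the drug, and had been transduced with a pBabe retrovirus encoding the double cysteine mutant. Cre was given to neither group, so endogenous *Rtel1* was intact in both. The 2 groups differ in the drug and in the transgene at once, and the effects of these cannot be told apart from the 6 libraries. For that reason values in untreated +GFP cells without the transgene (3 further libraries of the same floxed line) are given beside many results. Where they are missing, a difference is relative to RTEL1 CA cells only.

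RTEL1 is a DNA helicase that takes apart secondary structures such as G-quadruplexes (G4-DNA) and telomeric t-loops. G4-DNA forms where 4 runs of guanines stack into planar quartets held by hydrogen bonds. TMPyP4 is a cationic porphyrin that stacks on such quartets and stabilises them, although it also binds other nucleic acids. The C1252A/C1255A substitutions disrupt the C4C4 motif through which RTEL1 binds the telomere protein TRF2, so that the mutant fails to unwind t-loops while its role at replication forks is retained.

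The 3 TMPyP4 libraries held 32069888, 42008482 and 43013208 expected counts, and the 3 RTEL1 CA libraries 47906610, 38108060 and 44933721, within or at the edge of the range of 32069888 to 51938593 for the series. The smallest library of the series was thus a TMPyP4 library. Fibroblast marker mRNAs were abundant in both groups, with a sum over 12 markers of 6071 to 6986 length-scaled transcript units (TPM) in TMPyP4 cells and 7238 to 7925 in RTEL1 CA cells, although *Thy1*, *Lum* and *Fap* stayed under 1 TPM in all 6 libraries. Markers of other cell types were mostly low. *Krt5*, *Tie1*, *Emcn*, *Cldn5*, *Adgre1*, *Cd3e* and *Hbb-bs* had 0 counts in every one of the 6 libraries, and *Ptprc* had at most 1. The macrophage marker *Cd68* reached 2.98 TPM and the epithelial marker *Krt18* 1.78, and the adipocyte regulator *Pparg* had 5.28 to 8.57 TPM. Among chondrocyte and osteoblast markers *Col2a1* was called higher in TMPyP4 cells, and *Sox9* and *Acan* lower. The part of such cells in the results below was not tested. The 8 neuron and glia markers summed to 19.4 to 28.7 TPM in TMPyP4 and to at most 12.9 in RTEL1 CA libraries, with *Rbfox3* and *Sox10* at 0 counts, and *Tubb3* and *Syt1* were called higher (log2 1.26 and 0.99).

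*Rtel1* itself (chr2:181319711-181356616, build GRCm38 as for all genes below) separated the groups as their labels say. Its level was 66.3, 79.0 and 70.9 CPM (counts scaled to library size) in the TMPyP4 libraries, 338, 328 and 331 in the RTEL1 CA libraries, and 66.2, 59.1 and 60.2 in the +GFP libraries. The TMPyP4 libraries lay far below the RTEL1 CA libraries and close to the +GFP libraries. RTEL1 CA cells thus had 4.61-fold more *Rtel1* mRNA than TMPyP4 cells (log2 fold change -2.20, SE 0.0804, adjusted p = 3.0e-12, two-sided edgeR quasi-likelihood test with Benjamini-Hochberg adjustment). The counts do not separate the endogenous transcript from that of the transgene. Here and below, in bulk RNA a lower level in each cell and fewer cells with the transcript cannot be told apart.

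Of 13719 genes tested, 2333 differed between TMPyP4 and RTEL1 CA cells at an adjusted p of at most 0.01. TMPyP4 cells had higher levels of 1363 genes (9.94% of those tested) and lower levels of 970 (7.07%). Most differences were modest: the median absolute log2 fold change of the called genes was 0.60, and 655 called genes differed by at least 1 on the log2 scale, 384 higher and 271 lower. The 3 TMPyP4 libraries did not overlap with the 3 RTEL1 CA libraries for 1360 of the 1363 genes called higher and for 969 of the 970 called lower. The same held for 5524 of all 13719 genes tested. A call itself favors genes with such separation, so these counts are not separate evidence for the calls. When libraries of the same replicate number were paired and the number was added to the model as a block, 1874 genes (13.7%) were called higher and 1410 (10.3%) lower, and 2323 of the 2333 genes were called again. Leaving out RTEL1 CA replicate 1 turned the balance of the calls, to 938 higher and 1083 lower, and its position is described next.

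Principal component analysis of the 6 libraries put 55.0% of the variance on its first component, which separated TMPyP4 from RTEL1 CA cells. The second held 25.9%, and on it replicate 1 had the highest score of its group in both groups, with RTEL1 CA replicate 1 farthest out. With the +GFP libraries added, 61.8% fell on the first component, where TMPyP4 cells lay between the 2 untreated groups, at -5.75 to 17.5, against -62.0 to -39.0 for +GFP and 29.9 to 61.8 for RTEL1 CA cells. The second component, with 15.9%, set the TMPyP4 libraries apart from both untreated groups.

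**Figure D1:**
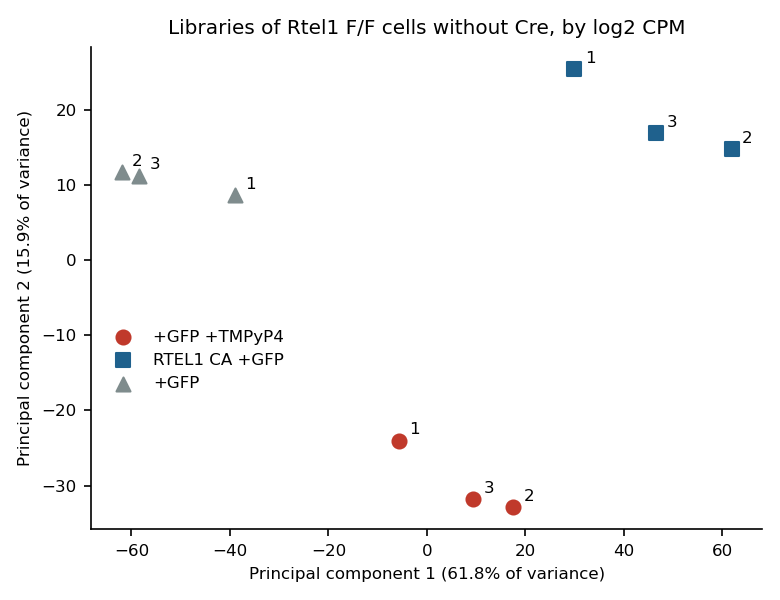
Principal component scores of the 9 libraries of *Rtel1* F/F cells without Cre, from log2 CPM, with the share of variance on each axis and the replicate number beside each point. On the first axis the TMPyP4 libraries (-5.75 to 17.5) lie between the +GFP and RTEL1 CA libraries, and on the second they lie below both.

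Each comparison with +GFP cells shares libraries with the main one, so its values are given side by side and not as separate evidence. Against +GFP cells, TMPyP4 cells had 2278 genes higher (16.6%) and 1836 lower (13.4%), and RTEL1 CA cells had 3105 higher (22.6%) and 3033 lower (22.1%). Among the 1363 genes higher in TMPyP4 than in RTEL1 CA cells, the +GFP mean lay above both for 728 genes (53.4%), between them for 498 (36.5%) and below both for 137 (10.1%). Among the 970 genes that were lower, it lay below both for 560 (57.7%), between for 313 (32.3%) and above both for 97 (10.0%). Genes that were not called had much the same shares: the +GFP mean lay above both for 58.7% of those with a log2 fold change above 0 and below both for 55.2% of those below 0. The position of +GFP cells is therefore given gene by gene for many genes, and nothing about the called genes is read from these shares.

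Genes of the amino acid stress response were the list with the largest share of calls. ATF4 is a transcription factor that is translated when the initiation factor eIF2α is phosphorylated, and it activates genes for amino acid synthesis and uptake, tRNA charging and one-carbon metabolism through C/EBP-ATF response elements (CARE). All 24 members of the ATF4 list were tested, and 21 were called higher in TMPyP4 cells, against 9.94% of all genes, with 0 called lower. The median log2 fold change was 0.88, against 0.01 over all genes tested, and all 24 values were above 0. The summed level of the 24 genes was 6848 to 7275 CPM in TMPyP4 libraries, 3890 to 4294 in RTEL1 CA libraries and 4070 to 5194 in +GFP libraries. Against +GFP cells, 15 members were higher in TMPyP4 cells and 0 lower, with a median of 0.61, whereas in RTEL1 CA cells 2 were higher and 12 lower, with a median of -0.35. Over the alternative settings the number called higher was 15 to 24, and 0 were called lower in any of them.

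Promoter sequences were searched for the CARE letters TGATGNAA on both strands, in RefSeq windows of 300 bases (250 before to 50 after the start of transcription, GRCm38.p6). Of 22 ATF4 list members with a window, 9 held the letters (40.9%), against 2.75% of the 10837 tested genes with a window and 3.47% of all 21874 windows. The list was drawn up from genes of the ATF4 response, which acts through this motif. Its high share therefore describes the choice of list and is not a result of the comparison. The stretches below are shown because they belong to members that were higher in TMPyP4 cells, and the capitals mark the motif, or its reverse complement where it lies on the other strand. Each is written 5′ to 3′ on the strand of its gene.
Asns, chr6:7693210-7693262, minus strand: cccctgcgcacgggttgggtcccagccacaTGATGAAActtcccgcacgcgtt
Chac1, chr2:119351019-119351086, plus strand: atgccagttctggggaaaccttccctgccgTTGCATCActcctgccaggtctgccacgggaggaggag
Slc7a11, chr3:50443642-50443709, minus strand: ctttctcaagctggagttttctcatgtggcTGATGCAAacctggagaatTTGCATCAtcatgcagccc
Vldlr, chr19:27216790-27216857, plus strand: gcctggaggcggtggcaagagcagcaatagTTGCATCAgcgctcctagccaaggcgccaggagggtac
Pck2, chr14:55540133-55540200, plus strand: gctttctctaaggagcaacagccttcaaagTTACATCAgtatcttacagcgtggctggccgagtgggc
Nupr1, chr7:126625543-126625610, minus strand: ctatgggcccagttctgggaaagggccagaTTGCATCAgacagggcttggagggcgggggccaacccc
Fgf21, chr7:45615592-45615659, minus strand: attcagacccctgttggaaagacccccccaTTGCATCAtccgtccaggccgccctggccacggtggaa
*Slc7a11* held the motif on both strands within this stretch. The stretches of *Slc7a11* and *Vldlr* lie inside the gene span given below, ahead of a RefSeq transcript start within it. Across the whole comparison, 63 of the 1050 genes called higher and with a window held the letters, 22 (2.80%) of the 787 called lower and 213 (2.37%) of the 9000 not called. The genes called higher include members of the ATF4 list such as *Asns*. These are counts of letters in a window and do not show binding.

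Among the transport genes, *Slc7a11* (chr3:50364936-50499087), the cystine carrier of system xc-, had 64.3, 60.5 and 57.9 CPM in TMPyP4 libraries, 20.3, 17.0 and 17.7 in RTEL1 CA libraries, and 40.6 ± 10.7 (SD, n = 3) in +GFP libraries. It was 3.32-fold higher in TMPyP4 than in RTEL1 CA cells (log2 1.73, SE 0.127, adjusted p = 2.0e-08). The TMPyP4 libraries exceeded all 6 untreated libraries, but the RTEL1 CA level also lay below that of +GFP cells (log2 -1.15). *Slc7a5* and *Slc3a2*, which together form a carrier of large neutral amino acids, were higher by 0.80 and 0.70 on the log2 scale, and *Slc7a1*, a carrier of cationic amino acids, by 0.42, the last in 7 of 18 alternatives. Another carrier of cationic amino acids, *Slc7a3* (chrX:101079146-101090452), was not on the list and stood among the 10 largest rises. It had 57.6, 59.9 and 54.9 CPM in TMPyP4 libraries, 11.2, 11.4 and 11.9 in RTEL1 CA libraries, and 20.2, 15.3 and 17.8 in +GFP libraries (log2 2.32, SE 0.0961, adjusted p = 1.2e-11). Its TMPyP4 libraries thus lay well above both untreated groups.

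Among the enzymes, *Asns* (chr6:7675165-7693209), which makes asparagine, had 536, 604 and 595 CPM in TMPyP4 libraries against 259, 306 and 287 in RTEL1 CA libraries and 383, 259 and 299 in +GFP libraries (log2 1.03, SE 0.123, adjusted p = 6.8e-06). *Psph* (chr5:129765558-129787443), the last enzyme of serine synthesis, had 195, 205 and 235 CPM in TMPyP4 libraries against 90.8, 91.4 and 106 in RTEL1 CA libraries and 108, 89.3 and 104 in +GFP libraries (log2 1.14, SE 0.123, adjusted p = 2.0e-06). For both enzymes the 2 untreated groups had overlapping levels and the TMPyP4 libraries stood above them. The same held for *Mthfd2*, a mitochondrial folate enzyme (395, 414 and 413 CPM against 213, 217 and 218 in RTEL1 CA and 232, 186 and 208 in +GFP libraries, log2 0.92). *Aldh1l2*, another mitochondrial folate enzyme, rose by 1.79 over RTEL1 CA and by 0.96 over +GFP cells, and *Pck2*, the mitochondrial phosphoenolpyruvate carboxykinase, rose by 1.61 over RTEL1 CA cells, while its value of 0.61 against +GFP cells did not pass (adjusted p = 0.012). *Psat1*, also of serine synthesis, rose by 0.39 and 0.79, the former in 6 of 18 alternatives. *Phgdh*, the first enzyme of that pathway, did not pass the test (log2 0.64, adjusted p = 0.021), but passed with the replicate block (adjusted p = 6.4e-04).

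Regulators and stress genes of the list moved the same way. *Atf4* mRNA (chr15:80255184-80257545) had 663, 742 and 752 CPM in TMPyP4 libraries, 487, 497 and 521 in RTEL1 CA libraries and 470, 414 and 452 in +GFP libraries (log2 0.52, SE 0.0753, adjusted p = 5.2e-05), with no overlap between treated and untreated libraries. *Trib3*, a pseudokinase that restrains ATF4, was higher by 1.94, *Chac1*, which degrades glutathione, by 1.46, *Ddit3*, which encodes CHOP, by 0.86, and *Ppp1r15a*, which directs dephosphorylation of eIF2α, by 0.42. *Atf5* was higher by 0.90 than in RTEL1 CA cells, but differed by only 0.06 from +GFP cells. *Atf3* and *Cebpb* did not pass the test, with log2 values of 0.33 (adjusted p = 0.019) and 0.85 (adjusted p = 0.10). Both passed with the replicate block, under which all 24 members of the list were called higher. *Vldlr* (chr19:27216480-27254231), a lipoprotein receptor, had the most precise difference of the list, with 160, 168 and 158 CPM in TMPyP4 libraries against 38.2, 36.0 and 36.1 in RTEL1 CA libraries and 91.2, 80.9 and 78.6 in +GFP libraries (log2 2.14, SE 0.0700, adjusted p = 1.2e-12). *Fgf21*, a secreted hormone of the starvation response, was low in all groups, with 5.10, 3.18 and 5.54 CPM in TMPyP4, 0.689, 0.488 and 0.617 in RTEL1 CA and 3.12, 2.88 and 3.04 in +GFP libraries (log2 2.93, SE 0.192, adjusted p = 4.4e-09).

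**Figure D2:**
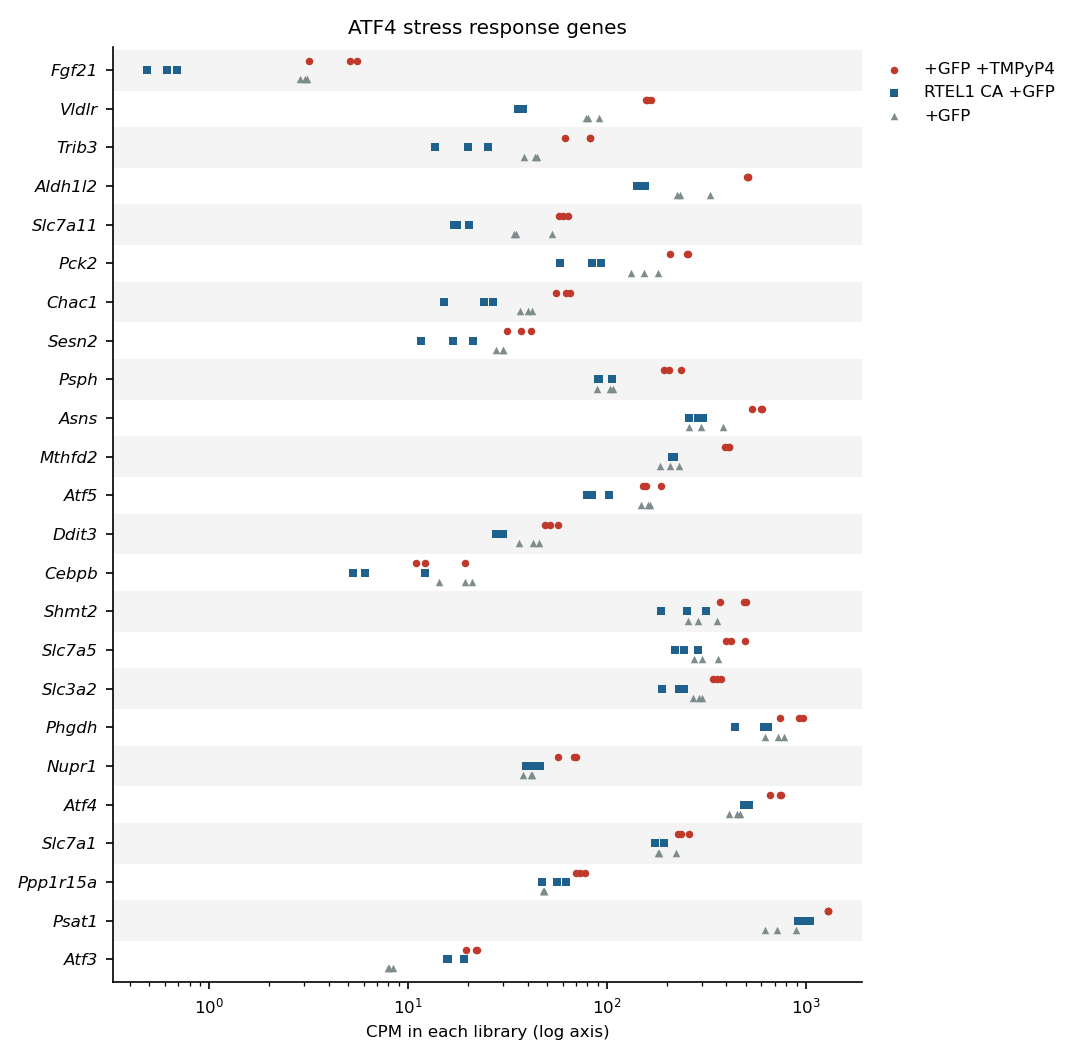
Level of each of the 24 ATF4 list genes in each library, in CPM on a log axis, ordered by the log2 fold change of TMPyP4 against RTEL1 CA cells. The red points (TMPyP4) lie to the right of the blue points (RTEL1 CA) for most genes, from *Fgf21* at the top to *Atf3* at the bottom, while the grey points (+GFP) lie between them for some genes and beside the blue points for others.

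Further genes of amino acid metabolism were looked up after the list had been seen, so they are a description. *Cth* (chr3:157894248-157925081), which makes cysteine from cystathionine, had 132, 145 and 145 CPM in TMPyP4 libraries, 34.8, 33.5 and 37.3 in RTEL1 CA libraries and 40.6, 26.3 and 30.7 in +GFP libraries. It was higher than in RTEL1 CA cells by 2.00 on the log2 scale (SE 0.136) and differed from +GFP cells by 2.12, whereas the untreated groups differed by 0.11 (adjusted p = 0.48). The cytoplasmic tRNA synthetases *Gars*, *Sars*, *Cars*, *Aars* and *Wars* were higher than in RTEL1 CA cells by 0.66, 0.62, 0.56, 0.52 and 0.40 and higher than in +GFP cells by 0.82, 0.41, 0.56, 0.38 and 0.68. The first 4 passed the test in all 18 alternatives and *Wars* in 10 of 18.

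The endoplasmic reticulum chaperones, which the unfolded protein response induces through ATF6 and XBP1, showed no such rise. Of 17 tested, 2 were called higher and 4 lower, against 9.94% and 7.07% of all genes, with a median of -0.24. *Calr*, the calcium-binding chaperone calreticulin (chr8:84842088-84846931), had 862, 1012 and 937 CPM in TMPyP4 libraries against 1317, 1637 and 1444 in RTEL1 CA libraries and 1173, 1158 and 1189 in +GFP libraries (log2 -0.65, SE 0.0891, adjusted p = 3.1e-05). It was the lowest in TMPyP4 cells of the 3 groups. *Hspa5*, which encodes BiP, fell by 0.32 relative to RTEL1 CA cells but differed by 0.08 from +GFP cells. *Herpud1*, a component of the degradation machinery that ATF4 also reaches, was higher by 0.68. The cytosolic heat shock genes were mostly lower than in RTEL1 CA cells where they passed the test, with 3 of 16 lower and 1 higher. Against +GFP cells, 10 of the 16 were higher in TMPyP4 cells (16.6% of all genes) and 11 in RTEL1 CA cells (22.6% of all genes). Without TMPyP4 replicate 3 the numbers lower than in RTEL1 CA cells fell to 2 chaperones and 1 heat shock gene. Over all alternative settings they were 1 to 11 chaperones and 0 to 9 heat shock genes. At an unadjusted p under 0.05 (edgeR), 10 chaperones were lower and 2 higher, and 9 heat shock genes were lower and 1 higher.

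Counting only genes that averaged 5 CPM or more, the 10 largest rises were *Cdsn*, *Enpp2*, *C1s1*, *Serpina3g*, *Igf1*, *Slc7a3*, *Pcdhb17*, *Kctd15*, *Ndnf* and *Postn*, with log2 fold changes of 4.64 to 2.22. *Cdsn* (chr17:35543101-35557180), which encodes the adhesion protein corneodesmosin of the epidermis, had 42.7, 36.9 and 44.4 CPM in TMPyP4 libraries, 1.83, 1.11 and 1.99 in RTEL1 CA libraries, and 18.1, 15.8 and 17.0 in +GFP libraries. It was 24.9-fold higher in TMPyP4 than in RTEL1 CA cells (log2 4.64, SE 0.205, adjusted p = 2.5e-11), and higher than in +GFP cells as well (log2 1.29). The RTEL1 CA libraries stood far below both other groups. *Kctd15*, a BTB domain protein, differed from RTEL1 CA cells by 2.30 and from +GFP cells by 0.27 (adjusted p = 0.28), so that here the RTEL1 CA libraries alone were set apart. *Postn*, the matrix protein periostin, had 16.4, 15.0 and 13.2 CPM in TMPyP4 and 3.49, 3.69 and 2.40 in RTEL1 CA libraries, and its value of 0.47 against +GFP cells did not pass (adjusted p = 0.041).

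*Enpp2*, *Igf1*, *Ndnf*, *C1s1* and *Serpina3g*, which encode secreted proteins, had TMPyP4 levels between those of the untreated groups. *Enpp2* (chr15:54838901-54952789), the secreted lysophospholipase D autotaxin, had 208, 206 and 175 CPM in TMPyP4 libraries, 29.5, 32.2 and 33.3 in RTEL1 CA libraries, and 275, 494 and 441 in +GFP libraries (log2 2.63, SE 0.169, adjusted p = 4.3e-09). *Igf1* (chr10:87858265-87937047), an insulin-like growth factor, had 35.9, 36.0 and 32.4 CPM in TMPyP4 libraries, 6.33, 6.95 and 6.85 in RTEL1 CA libraries, and 62.7, 94.7 and 80.7 in +GFP libraries (log2 2.37, SE 0.144, adjusted p = 1.8e-09). For each, all 3 TMPyP4 libraries were above the RTEL1 CA libraries and below the +GFP libraries. *Ndnf* followed the same order (log2 2.23, and -1.84 against +GFP), as did the complement protease *C1s1* (2.53 and -2.60) and the protease inhibitor *Serpina3g* (2.45 and -3.18). *C1s1*, *Serpina3g* and the protocadherin *Pcdhb17* have close relatives in the genome, between which the counting may have divided reads.

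The 10 largest falls were *Crabp1*, *Lama2*, *Tbc1d9*, *Mbnl3*, *Rtel1*, *Arhgap24*, *Arap2*, *Hmga2-ps1*, *1810011O10Rik* and *Sema7a*, from -3.38 to -1.67. *Crabp1* (chr9:54764748-54773110), a retinoic acid binding protein, had 3.96, 3.73 and 3.73 CPM in TMPyP4 libraries, 47.9, 33.5 and 37.6 in RTEL1 CA libraries, and 1.96, 1.09 and 1.68 in +GFP libraries. The RTEL1 CA level was 10.4-fold above that of TMPyP4 cells (log2 -3.38, SE 0.146, adjusted p = 2.1e-11), while TMPyP4 cells exceeded +GFP cells by 1.27. *Arap2* and *Arhgap24*, GTPase-activating proteins, were ordered the same way (log2 -1.78 and -1.81 against RTEL1 CA cells, 1.21 and 0.55 against +GFP cells). *Tbc1d9*, with a Rab GTPase-activating domain, was at 2.25, 1.95 and 2.15 CPM in TMPyP4, 12.4, 11.9 and 12.7 in RTEL1 CA and 2.34, 2.86 and 2.62 in +GFP libraries, and the difference from +GFP cells did not pass (log2 -0.30, adjusted p = 0.023). *Hmga2-ps1*, a pseudogene, shares sequence with *Hmga2*, which encodes a chromatin protein of growing cells and itself fell by 1.03, so its value is uncertain.

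Other genes of this group were lower in TMPyP4 cells than in both untreated groups. *Mbnl3* (chrX:51113494-51205990), a muscleblind regulator of splicing, had 2.60, 2.91 and 2.46 CPM in TMPyP4 libraries, 15.4, 14.9 and 12.9 in RTEL1 CA libraries, and 9.77, 9.02 and 8.15 in +GFP libraries (log2 -2.44, SE 0.108, adjusted p = 2.5e-11). *Lama2* (chr10:26981285-27617191), a laminin chain of basement membranes, had 1.27, 0.964 and 1.07 CPM in TMPyP4 libraries, 10.2, 9.90 and 9.23 in RTEL1 CA libraries, and 2.78, 2.57 and 2.28 in +GFP libraries (log2 -3.16, SE 0.150, adjusted p = 6.3e-11). *Sema7a* (chr9:57939596-57962865), a membrane-anchored semaphorin, was lower by 1.67 than in RTEL1 CA cells and by 0.90 than in +GFP cells. In all 3 genes the highest TMPyP4 library was below the lowest library of each untreated group.

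**Figure D3:**
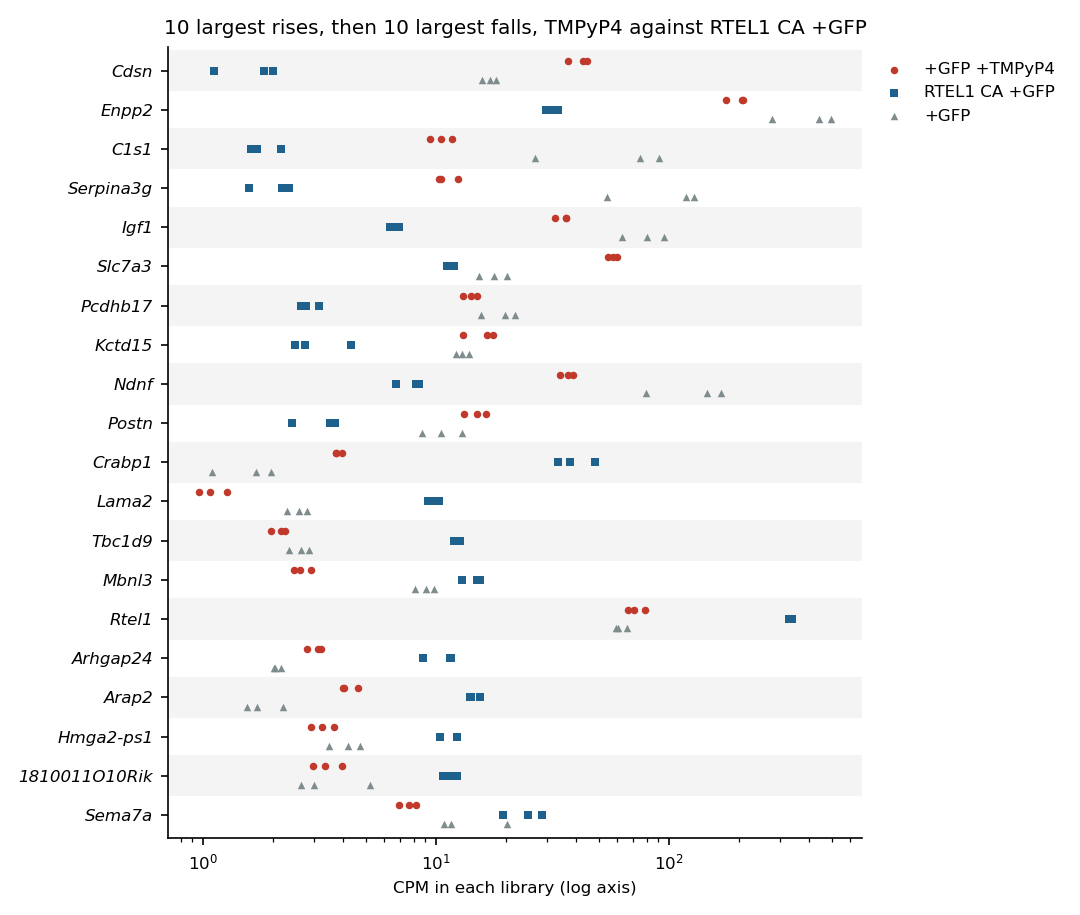
Level, in each library, of the 10 named rises and the 10 named falls, in CPM on a log axis. The TMPyP4 points (red) lie between RTEL1 CA (blue) and +GFP (grey) for *Enpp2*, *Igf1* and *Ndnf*, to the right of both for *Cdsn* and *Slc7a3*, and to the left of both for *Lama2*, *Mbnl3* and *Sema7a*.

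Interferon-stimulated genes, which act in the antiviral response to type I interferon, were higher in TMPyP4 than in RTEL1 CA cells but lower than in +GFP cells. All 33 on the list were tested, and 17 were called higher and 0 lower than in RTEL1 CA cells (2 lower at an unadjusted p under 0.05, and 17 and 0 by DESeq2), against 9.94% and 7.07% of all genes, with a median log2 fold change of 0.58. Against +GFP cells, TMPyP4 cells had 1 of the 33 higher and 25 lower (median -1.10, against 16.6% and 13.4% of all genes), and RTEL1 CA cells 0 higher and 27 lower (median -1.40, against 22.6% and 22.1%). The summed level was 442 to 462 CPM in TMPyP4, 330 to 363 in RTEL1 CA and 715 to 745 in +GFP libraries. The number called higher was 6 to 18 over the alternative settings, and 9 without TMPyP4 replicate 1 or without RTEL1 CA replicate 2 and 10 without RTEL1 CA replicate 3. *Gbp2* (chr3:142620663-142638008), a guanylate-binding GTPase, had 15.8, 14.5 and 12.8 CPM in TMPyP4 libraries, 4.95, 4.88 and 6.12 in RTEL1 CA libraries, and 28.9, 42.2 and 41.1 in +GFP libraries (log2 1.43, SE 0.176, adjusted p = 9.6e-06). The cytosolic RNA sensor *Ddx58* had 38.0, 38.9 and 36.4 CPM against 23.3, 25.1 and 24.3 in RTEL1 CA and 55.6, 58.0 and 55.1 in +GFP libraries (log2 0.64, SE 0.0816, adjusted p = 1.3e-05). Both genes kept the same order of groups without overlap. The chemokine *Ccl5* was ordered likewise (log2 1.33, and -1.65 against +GFP), whereas *Ifit2* and *Cxcl10* differed little between TMPyP4 and RTEL1 CA cells (0.00 and -0.01). *Stat2* and *Irf9*, transcription factors of the interferon response, were higher by 0.41 and 0.58, in 11 and 17 of 18 alternatives.

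**Figure D4:**
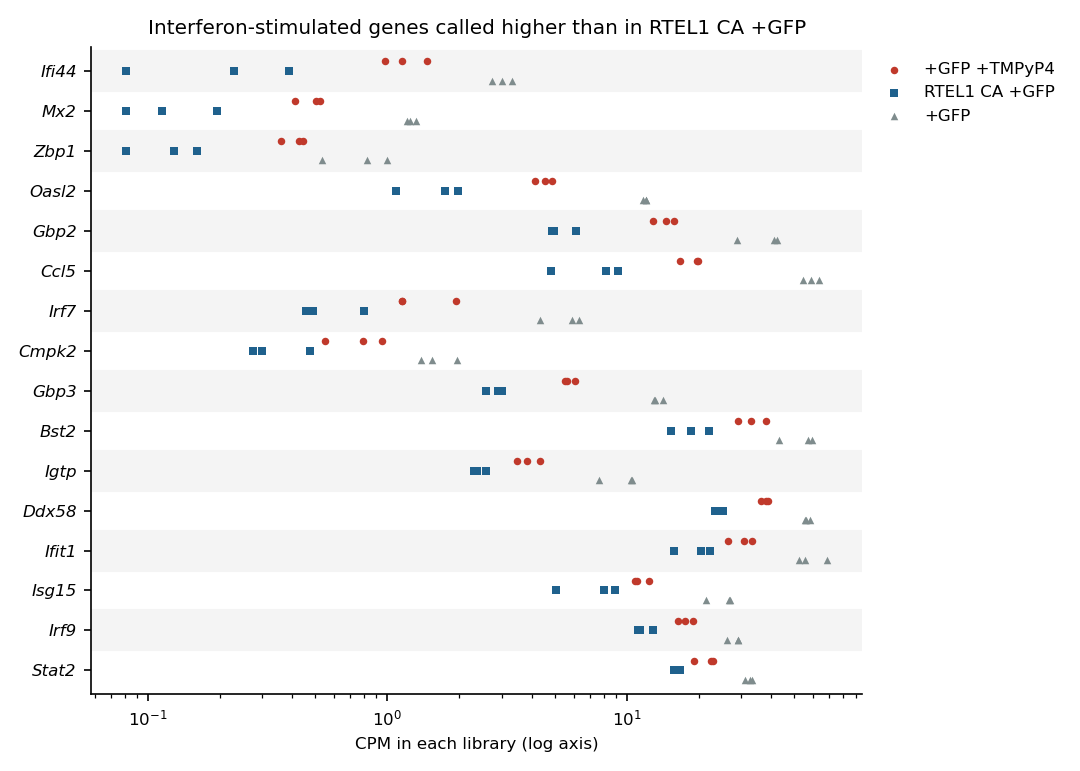
Level of 16 of the 17 interferon-stimulated genes called higher in TMPyP4 than in RTEL1 CA cells, in CPM on a log axis, 1 point per library. For each gene shown the TMPyP4 points (red) lie to the right of the RTEL1 CA points (blue), and the +GFP points (grey) lie farther right.

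Genes of the extracellular matrix held calls higher than in RTEL1 CA cells and calls lower than in +GFP cells, and the summed level of the collagens overlapped between TMPyP4 (7442 to 11067 CPM) and RTEL1 CA libraries (5108 to 8766 CPM). Of 29 tested genes for proteoglycans and glycoproteins of the matrix (31 listed), 13 were called higher and 2 lower in TMPyP4 than in RTEL1 CA cells, and against +GFP cells 1 was higher and 15 lower. These counts stand against 9.94% of all genes higher and 7.07% lower, and 16.6% and 13.4% against +GFP cells. Without RTEL1 CA replicate 3 the number higher fell from 13 to 6. Of 22 collagen genes, 5 were higher and 1 lower (8 and 1 with the replicate block), and against +GFP cells 1 was higher and 12 lower, with a median of -0.99. *Col6a3* (chr1:90766860-90844001), a chain of microfibrillar collagen, had 107, 82.6 and 79.2 CPM in TMPyP4, 36.7, 27.3 and 28.2 in RTEL1 CA and 273, 227 and 206 in +GFP libraries (log2 1.54, SE 0.199, adjusted p = 2.0e-05). *Col8a2* and *Col2a1* were higher by 1.70 and 1.92 than in RTEL1 CA cells, and both were lower by 2.47 than in +GFP cells, and the call for *Col2a1* was lost without RTEL1 CA replicate 2 or replicate 3 (adjusted p = 0.012 and 0.011). *Tgfbi*, a matrix protein induced by TGF-β, was higher than in RTEL1 CA cells by 1.38 and lower than in +GFP cells. Against this pattern, *Spp1* (chr5:104435111-104441053), the secreted phosphoprotein osteopontin, had 208, 234 and 220 CPM in TMPyP4, 649, 686 and 651 in RTEL1 CA and 398, 228 and 252 in +GFP libraries (log2 -1.59, SE 0.164, adjusted p = 1.3e-06), and *Dcn*, the proteoglycan decorin, was lower than in both untreated groups (log2 -1.11 and -0.87).

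Matrix proteases and their inhibitors were divided, with 7 of 22 tested higher and 4 lower, against 9.94% and 7.07% of all genes. *Mmp9*, a gelatinase (chr2:164940326-164955850), had 27.7, 19.8 and 20.8 CPM in TMPyP4, 7.41, 4.48 and 7.13 in RTEL1 CA and 106, 153 and 145 in +GFP libraries (log2 1.84, SE 0.219, adjusted p = 8.2e-06). *Timp3*, a metalloprotease inhibitor (chr10:86300412-86349505), had 313, 341 and 347 CPM in TMPyP4, 112, 132 and 126 in RTEL1 CA and 231, 285 and 255 in +GFP libraries (log2 1.44, SE 0.0838, adjusted p = 1.1e-09). The inhibitor was thus highest in TMPyP4 cells, whereas the protease lay between the untreated groups. *Adamts1*, *Plat* and *Timp1* were lower than in RTEL1 CA cells, with log2 values of -0.85, -0.46 and -0.37.

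Contractile genes that serum response factor controls were higher where they passed the test, with 6 of 26 higher and 0 lower. These counts stand against 9.94% and 7.07% of all genes. The list as a whole moved little, with a median log2 fold change of 0.10, 14 values above 0 and 12 below. *Acta2*, smooth muscle actin (chr19:34240336-34255585), had 1141, 1211 and 1175 CPM in TMPyP4, 755, 852 and 854 in RTEL1 CA and 489, 406 and 422 in +GFP libraries (log2 0.52, SE 0.0845, adjusted p = 1.6e-04). *Lmod1*, leiomodin, was higher by 1.26, *Actg2*, enteric actin, by 1.14 and *Cnn1*, calponin, by 0.62, and against +GFP cells these 3 were higher by 1.01, 1.66 and 1.70. TMPyP4 cells thus had the highest levels of the genes named here among the 3 groups, which does not extend to the rest of the list. The call for *Cnn1* passed in 9 of 18 alternatives.

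**Figure D5:**
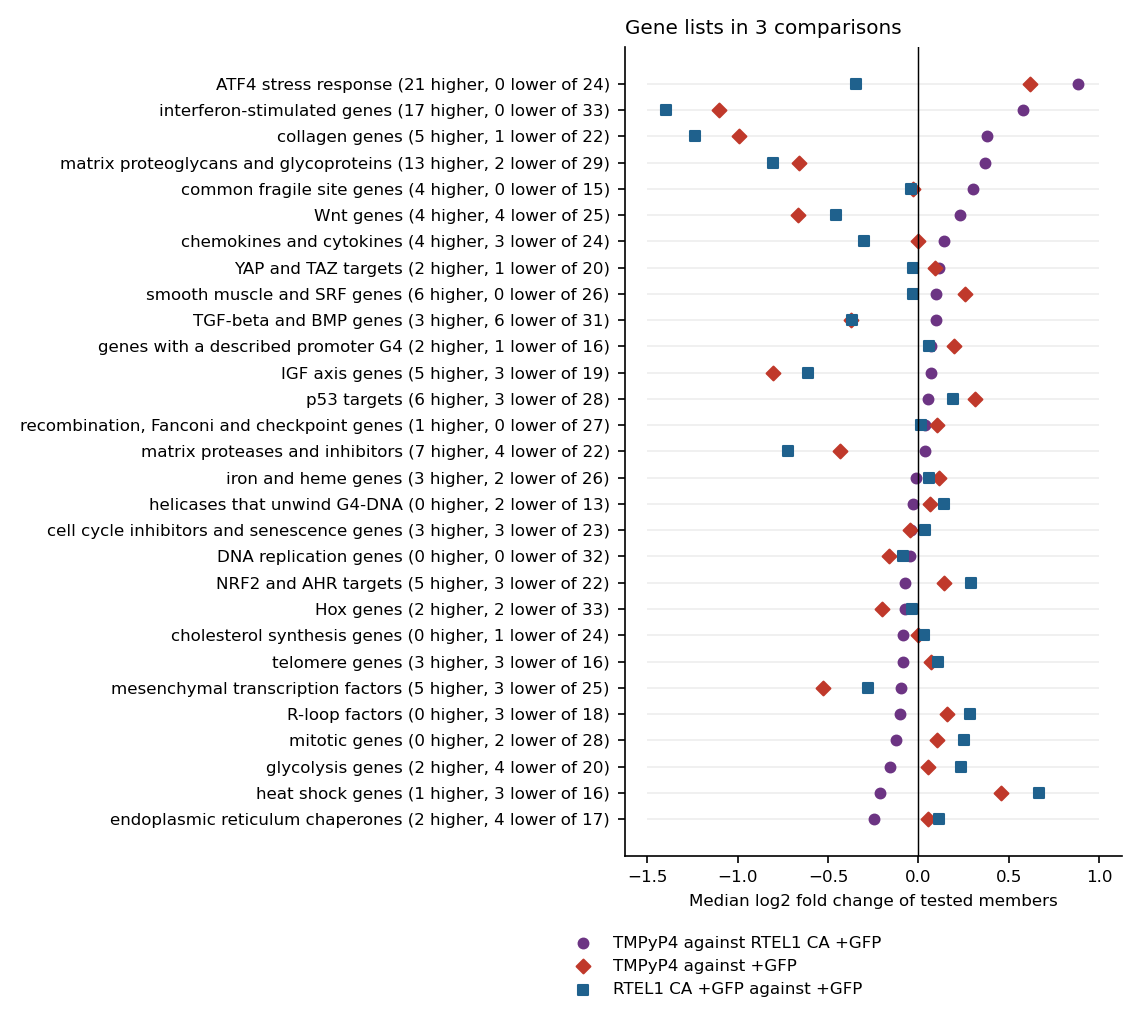
Median log2 fold change of the tested members of each gene list in 3 comparisons that share libraries, with the numbers called in TMPyP4 against RTEL1 CA cells in the label. The ATF4 list lies at 0.88 against RTEL1 CA and 0.61 against +GFP cells, while interferon-stimulated genes lie at 0.58 and -1.10.

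Among iron, heme and glycolysis genes there were calls in both directions. *Tfrc* (chr16:32608896-32632794), the transferrin receptor that brings iron into cells, had 166, 182 and 176 CPM in TMPyP4, 324, 416 and 343 in RTEL1 CA and 161, 109 and 109 in +GFP libraries (log2 -1.05, SE 0.122, adjusted p = 5.1e-06). Of 26 tested iron and heme genes 3 were higher and 2 lower. This is near the 9.94% and 7.07% of all genes, so the count tells nothing about this list. Of 20 glycolysis genes, against the same shares, 4 (*Ldha*, *Eno1*, *Pgam1* and *Pgk1*) were lower, at log2 -0.53 to -0.35. Another 2 (*Pfkp* and *Pfkm*, the phosphofructokinases) were higher, by 0.54 and 0.49. At an unadjusted p under 0.05 (edgeR), 9 glycolysis genes were lower and 3 higher. Over the alternative settings, 2 to 9 were called lower and 1 to 3 higher. Against +GFP cells, TMPyP4 cells had 4 of the 20 higher and 1 lower (16.6% and 13.4% of all genes). RTEL1 CA cells had 9 higher and 4 lower than +GFP cells (22.6% and 22.1% of all genes). *Cpox*, an enzyme of porphyrin synthesis (chr16:58670208-58680391), was highest in TMPyP4 cells, with 71.3, 80.5 and 83.5 CPM against 46.9, 50.8 and 51.9 in RTEL1 CA and 40.9, 30.2 and 32.3 in +GFP libraries (log2 0.65, SE 0.118, adjusted p = 4.3e-04). *Hmox1*, heme oxygenase, did not pass (log2 -0.22, adjusted p = 0.033). *Il1rl1*, the receptor of interleukin-33, was lower than in both untreated groups (log2 -1.39 and -0.88). *Grem1*, a secreted BMP antagonist, fell by 0.97 relative to RTEL1 CA cells and was higher than in +GFP cells by 2.18.

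Lists tied to RTEL1 and to G4-DNA were read against the 9.94% of all genes called higher and 7.07% called lower. For counts against +GFP cells these shares were 16.6% and 13.4% in TMPyP4 cells, and 22.6% and 22.1% in RTEL1 CA cells. Of 13 helicases known to unwind G4-DNA, 0 were higher and 2 were lower, *Rtel1* and *Dhx9* (log2 -0.35, adjusted p = 0.0058, passing in 9 of 18 alternatives). Against +GFP cells, 2 of the 13 were higher and 0 lower in TMPyP4 cells, and 4 higher and 0 lower in RTEL1 CA cells. Of 18 R-loop factors 0 were higher and 3 lower (5 with the block): the RNA helicases *Ddx21* (-0.60), *Dhx9* and *Ddx19a* (-0.27). Against +GFP cells, TMPyP4 cells had 5 of the 18 higher and 0 lower (median log2 fold change 0.16). RTEL1 CA cells had 9 higher and 1 lower than +GFP cells (median 0.29). *Ddx21* had 297, 335 and 319 CPM in TMPyP4, 465, 503 and 473 in RTEL1 CA and 247, 164 and 165 in +GFP libraries. Of 16 telomere genes 3 were higher (*Tep1* by 0.86, *Ctc1* by 0.51 and *Tinf2* by 0.28) and 3 lower (*Dkc1*, *Nop10* and *Gar1*, components of the telomerase ribonucleoprotein and of other H/ACA particles, at log2 -0.57, -0.39 and -0.38). *Terf1* and *Terf2* differed by -0.04 (adjusted p = 0.77) and -0.11 (adjusted p = 0.41). Of 16 genes with a described promoter G4, *Vegfa* and *Pim1* were higher (0.97 and 0.59) and *Mycn* was called lower, the last at 0.0478 to 0.0951 CPM in TMPyP4 and 0.570 to 1.23 in RTEL1 CA libraries. *Vegfa* (chr17:46016993-46032377), the endothelial growth factor that ATF4 also induces, had 137, 156 and 154 CPM in TMPyP4, 78.2, 68.4 and 81.1 in RTEL1 CA and 81.6, 78.0 and 76.9 in +GFP libraries, with the untreated groups together and the treated libraries above them.

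Of replication and division genes few passed without the replicate block and more with it. The counts in this paragraph stand against 9.94% of all genes higher and 7.07% lower, and with the block 13.7% and 10.3%. Counts against +GFP cells stand against 16.6% and 13.4% for TMPyP4 cells, and 22.6% and 22.1% for RTEL1 CA cells. None of 32 DNA replication genes passed edgeR's test (0 higher and 0 lower, with 1 and 3 under the block). At an unadjusted p under 0.05 there were 2 higher and 7 lower, and DESeq2 called 0 higher and 3 lower. Against +GFP cells, 0 of the 32 were higher and 5 lower in TMPyP4 cells, and 3 higher and 6 lower in RTEL1 CA cells. Of single genes, *Mcm7* and *Pcna* had log2 values of 0.12 (adjusted p = 0.13) and -0.19 (adjusted p = 0.15). Of 28 mitotic genes 2 were lower, *Cdc20* (-0.38) and *Ccna2* (-0.30, in 8 of 18 alternatives), and 0 were higher by edgeR or DESeq2. With the block 6 were lower, and 12 with the block in the fit of the 6 libraries, in which 2 replication genes were higher and 9 lower. At an unadjusted p under 0.05 there were 12 mitotic genes lower and 0 higher. Against +GFP cells, TMPyP4 cells had 6 mitotic genes higher and 1 lower (median log2 fold change 0.10). RTEL1 CA cells had 12 mitotic genes higher and 0 lower than +GFP cells (median 0.25). Of 27 tested recombination, Fanconi and checkpoint genes only *Brca2* passed (0.35, adjusted p = 0.0086, in 7 of 18 alternatives). Of 28 p53 targets 6 were higher and 3 lower, with a median of 0.05. Against +GFP cells, 13 of these targets were higher and 1 lower in TMPyP4 cells, and 11 higher and 6 lower in RTEL1 CA cells. *Cdkn1a*, the cyclin-dependent kinase inhibitor p21 (chr17:29090979-29100722), had 92.6, 92.7 and 89.9 CPM in TMPyP4, 63.3, 64.9 and 64.0 in RTEL1 CA and 51.0, 49.1 and 53.2 in +GFP libraries (log2 0.52, SE 0.0550, adjusted p = 1.6e-06). *Rrm2b* and *Gadd45a* were higher by 0.69 and 1.15, and *Perp*, *Dyrk3* and *Aen* lower, at log2 -0.71, -0.56 and -0.37. *Trp53* did not pass (-0.19, adjusted p = 0.13). Of 24 cholesterol synthesis genes, edgeR and DESeq2 each called 0 higher and 1 lower, with 1 and 3 at an unadjusted p under 0.05.

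Genes that the study names, some only as partners of RTEL1, were also read. *Bmp4* (chr14:46383525-46390669), a bone morphogenetic protein, had 11.9, 9.42 and 10.6 CPM in TMPyP4, 4.82, 4.02 and 4.04 in RTEL1 CA and 14.2, 23.7 and 23.5 in +GFP libraries (log2 1.31, SE 0.195, adjusted p = 6.9e-05). *Dapk1* (chr13:60601723-60763191), a death-associated kinase, had 22.5, 21.4 and 21.6 CPM in TMPyP4, 12.2, 9.55 and 12.0 in RTEL1 CA and 29.6, 39.9 and 35.4 in +GFP libraries (log2 0.96, SE 0.113, adjusted p = 6.0e-06). In both, TMPyP4 cells lay between the untreated groups without overlap. *Bcl6*, a transcriptional repressor, was lower (log2 -0.42, adjusted p = 3.0e-04), but its adjusted p was 0.012 in the fit of the 6 libraries alone. *Adam22* differed from +GFP cells by -2.43 in TMPyP4 and -1.98 in RTEL1 CA cells and by -0.45 between them (adjusted p = 0.20). *Slx4*, *Actb*, *Rnaseh1* and *Poldip3* had log2 values of -0.04 to 0.14 and none passed, at adjusted p values of 0.13 to 0.83.

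Promoter windows were also searched for the G4 pattern of at least 4 runs of 3 or more guanines with 1 to 7 bases between them, on each strand. Among tested genes with a window, 39.5% of those called higher held the pattern on either strand, 30.4% of those called lower, 30.9% of those not called, and 31.7% of all. On the strand of the gene alone the shares were 22.7%, 17.4%, 17.9% and 18.3%, and over all windows 12.6%. The stretches below are those of genes with large differences in each direction and of *Dapk1*, and the capitals mark the pattern on the strand of the gene.
Crabp1, chr9:54764631-54764696, plus strand: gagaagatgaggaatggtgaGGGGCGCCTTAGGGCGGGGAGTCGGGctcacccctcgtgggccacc
Mbnl3, chrX:51206056-51206120, minus strand: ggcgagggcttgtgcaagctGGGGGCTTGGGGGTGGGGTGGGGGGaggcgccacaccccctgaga
Sema7a, chr9:57940007-57940068, plus strand: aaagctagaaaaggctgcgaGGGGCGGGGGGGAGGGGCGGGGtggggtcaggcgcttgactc
Kctd15, chr7:34655534-34655594, minus strand: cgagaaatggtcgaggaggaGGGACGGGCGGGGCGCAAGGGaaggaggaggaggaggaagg
Dapk1, chr13:60602113-60602177, plus strand: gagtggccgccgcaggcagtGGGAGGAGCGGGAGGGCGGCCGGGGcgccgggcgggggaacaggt
The pattern thus occurred in windows of genes that were lower (*Crabp1*, *Mbnl3*, *Sema7a*) and of genes that were higher (*Kctd15*, *Dapk1*) in TMPyP4 cells. The stretches of *Sema7a* and *Dapk1* lie inside the gene span given above, ahead of a RefSeq transcript start within it, and a match does not show that a quadruplex forms. GC content moved with the fold change: over 5 equal bins of transcript GC the median log2 fold change was -0.04, -0.03, -0.01, 0.05 and 0.15 from lowest to highest. With each library corrected for GC content, 1750 genes were called higher and 1540 lower. Its part in the promoter shares was not tested.

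Calls were also more frequent among long genes. Of genes spanning up to 10 kb, 13.9% were called, with 6.97% higher and 6.95% lower, and of those over 200 kb 27.2%, with 18.4% higher and 8.83% lower. Of 15 tested genes of common fragile sites, which are long and replicate late, 4 were higher and 0 lower: *Auts2* (0.88), *Immp2l* (0.73), *Dlg2* (0.65) and *Cdh13* (0.40). Of all genes, 9.94% were higher and 7.07% lower. Against +GFP cells, TMPyP4 cells had 3 of the 15 higher and 4 lower (16.6% and 13.4% of all genes). RTEL1 CA cells had 1 higher and 6 lower than +GFP cells (22.6% and 22.1% of all genes). *Auts2* (chr5:131437333-132543220) had 8.75, 7.06 and 6.90 CPM in TMPyP4, 4.78, 3.09 and 4.41 in RTEL1 CA and 8.99, 9.39 and 9.17 in +GFP libraries, so that TMPyP4 cells were nearer to +GFP cells. The count of 4 higher than in RTEL1 CA cells was 1 without RTEL1 CA replicate 1 or replicate 3. It was 2 without TMPyP4 replicate 2 or RTEL1 CA replicate 2, and 0 in the fit of the 6 libraries alone. Of the 22 listed genes, 21 were in the table, and the rest of these did not pass the filter on low counts.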

How the data were processed

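RNA from MEFs was sequenced in 21 libraries (7 groups of 3), grouped by the labels, which call them biological replicates. Per the labels and the methods, the authors used cutadapt 1.9.1 for trimming and STAR 2.5.2a for alignment, and deposited RSEM 1.3.0 expected counts for 24454 RefSeq genes of mm10 (here whole numbers), with TPM values that the authors' RSEM run scaled for transcript length. Counting was strand-specific (an RSEM forward probability of 0). TPM was used for marker levels only.

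The test was that of edgeR 4.0.16 under R 4.3.3 (TMM, filterByExpr by group, robust quasi-likelihood fit, 1 coefficient per group over all libraries, 14 residual degrees of freedom). Two-sided p-values were adjusted by Benjamini-Hochberg over 13719 genes, and a call is an adjusted p of at most 0.01. CPM values use TMM library sizes. The same code was tested on simulated data. Named genes were those the study discusses, the 10 largest rises and 10 largest falls, and up to 4 members per list, taken from called genes that averaged 5 CPM or more and whose groups did not overlap. Some list members are not reported here. Other list members are given as counts or as values for their role. Members and lists were chosen with earlier results of these data known.

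Same-numbered TMPyP4 and RTEL1 CA libraries deviated together from their group means (correlations 0.776, 0.693 and 0.303 over 11840 genes), so the numbers were taken to pair the libraries. The main test did not use this pairing, which entered only in the alternatives with a replicate block. Coordinates and promoter sequences are from RefSeq tables of GRCm38 (GRCm38.p6 for sequences). By symbol 23363 genes matched, by synonym 975, and 116 did not. Depth per library was 32069888 to 51938593 counts. Alternatives were DESeq2 1.42.0 and its size factors, other filters and thresholds, a fit of the 6 libraries, the replicate block, GC correction and left-out libraries.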

Additional observations from a re-analysis of the deposited data

How the results depend on the processing

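Against 2333 calls (1363 higher, 970 lower), other size factors, the filters and DESeq2 kept each count within 1.5 times, with 51.1% of 2722 calls higher under DESeq2 and 51.7% of 2253 with its size factors, against 58.4%. The fit of the 6 libraries alone called 1218 (719 higher, 499 lower). The replicate block called 3284 (1874 and 1410), the block in the 6-library fit 4760 (2506 and 2254), GC correction 3290 (1750 and 1540), and the block with GC correction 4180 (2157 and 2023). At an adjusted p of at most 0.05 there were 3750 calls (2075 and 1675), and with an absolute log2 fold change of at least 1 there were 655 (384 and 271). Leaving out 1 library gave 1592 to 2021 calls (860 to 1041 higher, 598 to 1083 lower), and without RTEL1 CA replicate 1 46.4% were higher. The lower calls fell by over 1.5 times without TMPyP4 replicate 1 or replicate 3, and the higher calls to 860 without RTEL1 CA replicate 3. Leaving out both libraries of a replicate number, an alternative chosen after seeing the data, gave 1323 (817 and 506), 1127 (650 and 477) and 1065 (636 and 429) calls without replicate 1, 2 and 3. The cause of these shifts was not tested, except that left-out libraries and the smaller fit leave fewer degrees of freedom.

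Of 116 named genes, 107 passed the test, 43 of them in all 20 settings, and none of the 107 changed sign in any of them. *Terf1*, *Slx4* and *Rnaseh1*, which did not pass, had values near 0 whose sign changed in some settings. Of the counts of list members, 824 stayed within 1.5 times of the reported count and 336 moved by more. With 3 libraries a group, differences smaller than the spread between libraries were not detectable, and p-values measure the spread between these libraries, which may be in part technical, since separate cultures are not stated.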

Other observations

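The insulin-like growth factor axis held large differences at low levels. *Igf2*, a fetal growth factor (chr7:142650768-142666816), had 5.26, 3.90 and 3.99 CPM in TMPyP4 libraries, 0.366, 0.244 and 0.183 in RTEL1 CA libraries and 5.12, 10.6 and 9.90 in +GFP libraries (log2 4.02, SE 0.305, adjusted p = 3.3e-08, edgeR). *Igfbp2*, a binding protein of these factors, was at 10.7, 4.89 and 7.79 CPM in TMPyP4, 0.108, 0.109 and 0.0914 in RTEL1 CA and 16.9, 31.5 and 29.3 in +GFP libraries. Both were picked after their values were seen. Of 19 tested genes on this list 5 were higher and 3 lower in TMPyP4 than in RTEL1 CA cells, against 9.94% and 7.07% of all genes. The list also holds imprinted genes. The 3 that were lower, *Peg3*, *Mest* and *Ndn*, are such genes, as is *Igf2*, which was higher. *Peg3* stayed under 0.05 CPM in TMPyP4 libraries and at 0.388 to 0.495 in RTEL1 CA libraries. *Mest* and *Ndn* had log2 values of -1.39 and -1.11. *Mest* and *Ndn* were also lower than in +GFP cells (log2 -2.77 and -1.89).

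Of 25 tested Wnt genes 4 were higher and 4 lower in TMPyP4 than in RTEL1 CA cells, and of 31 TGF-β and BMP genes 3 were higher and 6 lower. Of all genes, 9.94% were higher and 7.07% lower, so the TGF-β and BMP genes were called higher about as often as genes at large. *Dkk2*, a secreted Wnt inhibitor, was at 0.317, 0.482 and 0.334 CPM in TMPyP4, 4.01, 2.79 and 3.22 in RTEL1 CA and 0.0890, 0.0617 and 0.0601 in +GFP libraries (log2 -3.12, SE 0.192, adjusted p = 2.1e-09, edgeR). *Nog*, the BMP antagonist noggin, was at 1.49, 1.54 and 1.70 CPM in TMPyP4 and 3.38, 3.07 and 2.95 in RTEL1 CA libraries, and its call (log2 -0.99, adjusted p = 0.0096, edgeR) passed in 9 of 18 alternatives. The Wnt receptor *Fzd1* (log2 1.67) and the Wnt target *Axin2* (log2 1.32) were higher in TMPyP4 than in RTEL1 CA cells. *Dkk2*, *Nog* and *Axin2* were singled out after their values were seen.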
